A study of Mus musculus with 10 samples.

Results

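The brush border genes described here are 33 named genes of the absorptive surface of the small intestine, 19 for hydrolases of the microvillus membrane and 14 for the structure of the microvillus. They were chosen by name, and each was read from the probe set with the highest mean over the 10 arrays among those annotated to that gene alone. Such a probe set existed for 30 of them in the platform annotation used here, and no expression values are given for Sis, Ggt1 and Enpp7. Of the 30, 28 lay above the filter on dim probe sets and were tested among 13666 genes (15 hydrolases and 13 structural genes). The other two, Tmprss15 (2.63 to 3.49 on the log2 scale in the 9 mice other than control mouse 1), the enteropeptidase that activates trypsinogen, and the villin-like gene Vill (3.58 to 4.17), had means below the filter's floor of 4.15.

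Enterocytes carry a dense layer of microvilli, the brush border, where the last steps of digestion take place. Disaccharidases split sugars there, membrane peptidases release amino acids from small peptides, and intestinal alkaline phosphatase removes phosphate from nucleotides and bacterial products. Each microvillus is held up by a core of actin filaments bundled by villin, espin and plastin, linked to the membrane by ezrin and myosin 1a, and joined to its neighbours at the tips by a protocadherin complex. Many of these genes are switched on as cells leave the crypt, and transcription factors of the HNF4, HNF1, CDX and GATA families are known to act on them.

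The samples were terminal ileum from male C57BL/6JJmsSlc mice, 7 weeks of age, 5 control mice and 5 mice put through subchronic and mild social defeat stress. A stressed mouse met an aggressive ICR male, retired from breeding and more than 5 months old, on each of 10 days. From the first bite on, day 1 allowed 5 min of contact, and each later day 0.5 min less, down to 0.5 min on day 10. All mice were fed the AIN-93G diet and fasted for 3 h before sampling. RNA from the lower small intestine (100 ng) was labelled and hybridised to 1 Affymetrix array per mouse. The values are log2 signals, and the precision of group means and differences is limited by how few arrays there are. The tissue is a bulk sample, so fewer enterocytes and less RNA per enterocyte cannot be told apart in any value below. Each probe set has its own brightness, so levels are compared between mice for 1 gene and never between genes.

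Control mouse 1 stood apart from the other 9 arrays. Its array correlated with them at 0.918 to 0.947 over the genes tested, whereas the other arrays correlated with each other at 0.975 to 0.995. It was the lowest of the 10 mice for 7 of 7 distal ileum markers, among them Fabp6, the ileal bile acid binding protein, at 7.88 against 13.9 to 14.1 in the other mice. The colonic carbonic anhydrase Car1 was at 14.17 and the water channel Aqp8 at 7.50 in this mouse. Stressed mouse 4 also had high Car1 (13.32) and Aqp8 (7.26), with the other 8 mice at 4.95 to 7.41 and 4.15 to 4.49. The mean over 10 markers of all epithelial cells was 12.26 in control mouse 1, inside the range of 12.20 to 12.32 of the other mice, and the mean over 7 smooth muscle markers was 11.92 against 10.59 to 11.43. The mean over 7 tested large intestine markers (of 14 listed) was 8.98 in control mouse 1 and 6.99 to 8.67 in the others. Control mouse 1 was the highest of 10 for 3 of these 7, the lowest for 1 and within the range of the others for 3. Hoxd10, a gene of the posterior gut, was at 7.30 in control mouse 1 and at 4.46 in stressed mouse 4. The part of these differences in the brush border values was not tested, and the differences between groups are given with all 10 arrays and without control mouse 1.

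No brush border gene passed the test for a difference between stressed and control mice. With all 10 arrays the limma test called 0 of the 28 genes at an adjusted p under 0.05, and 0% of all genes tested. At an unadjusted p under 0.05, 2 of the 28 were higher in stressed mice (3.86% of all genes were) and 1 was lower (3.96% of all genes were). Without control mouse 1, 0 of the 28 were called against 0.798% of all genes (109 genes). At an unadjusted p under 0.05, 6 of the 28 were then higher (11.4% of all genes) and 1 was lower (6.56% of all genes). The 7 genes were Lct, Xpnpep2, Myo1a, Myo7b, Naaladl1 and Enpp3 on the higher side and Baiap2l1 on the lower side. Lct is in this count, and in the count of higher genes with all 10 arrays, only because its stressed values carried it past the filter on dim probe sets. Counts this small beside those shares of all genes are given as values, and nothing is read from them about the set.

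The size of the shift over these genes depended on control mouse 1. With all arrays 25 of the 28 genes had a higher mean in stressed mice (50.9% of all genes did), with a median difference of 0.39 against 0.003 over all genes. Leaving control mouse 1 out, 19 of the 28 were higher (56.2% of all genes were), and the median was 0.08 against 0.03. Among the hydrolases the median went from 0.69 to 0.16, and the number higher from 14 of 15 to 9 of 15. Lct is in these counts only because its stressed values carried it past the filter. Among the structural genes it went from 0.27 to 0.08, and the number higher from 11 of 13 to 10 of 13. The 95% confidence interval of the difference without control mouse 1 lay wholly within 0.5 on either side of 0 on the log2 scale for 20 of the 28 genes, and for 81.7% of all genes. The 8 genes whose interval reached further were Alpi, Lct, Mme, Xpnpep2, Enpp3, Myo7b, Pdzk1 and Baiap2l1. With all 10 arrays 5 of the 28 intervals lay within those limits, against 76.6% of all genes.

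**Figure D1:**
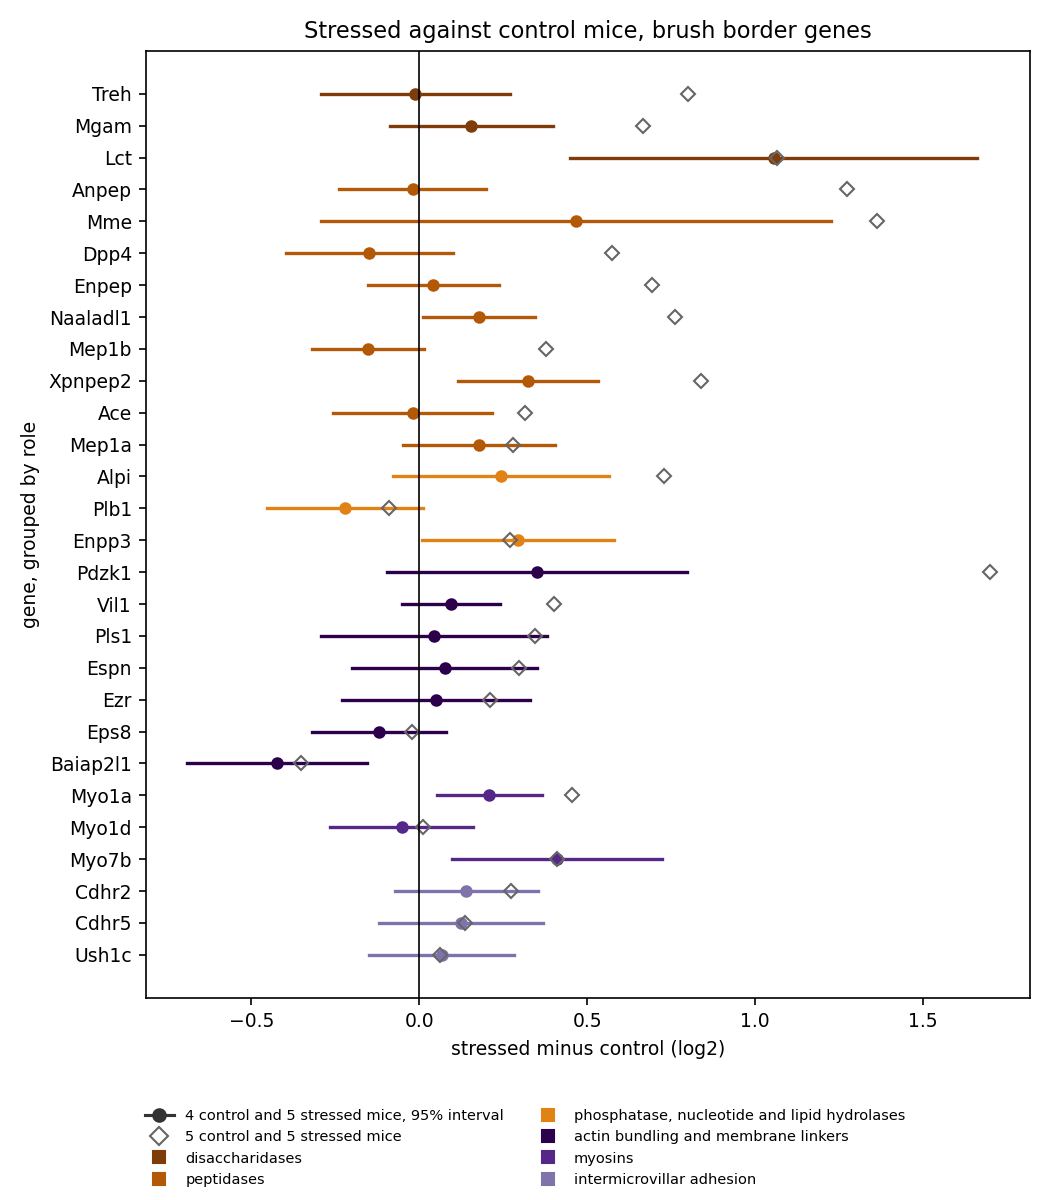
Difference between stressed and control mice for the 28 brush border genes on the log2 scale, grouped by role. Filled points with 95% confidence intervals compare 4 control with 5 stressed mice, and open diamonds compare 5 with 5. The diamonds of Pdzk1 (1.70), Mme (1.36) and Anpep (1.27) lie far to the right of their filled points at 0.35, 0.47 and -0.02.

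Promoter windows are shown for Lct, the lactase gene, whose expression declines after weaning in most mammals, and for Pdzk1, Anpep, Mme and Treh, the 4 genes whose measured value in control mouse 1 lay farthest from the other controls. The windows come from RefSeq (build GRCm38.p6) and hold 300 bases, from 250 before to 50 after the annotated start. A window was found for 28 of the 33 genes (38 windows), and Mep1b, Naaladl1, Myo1d, Myo7b and Eps8 had no entry. They were searched on both strands for 4 letter strings, none of which contains another: GTTAAT for HNF1, CAAAGTCC for HNF4, TTTATG for CDX factors and AGATAA for the factors of the GATA family. Capitals mark the matches, and a match is a description of the letters only. The Lct window (chr1:128328269-128328568 on the minus strand) holds 1 CDX and 2 GATA matches, the Treh window (chr9:44672983-44673282 on the plus strand) holds 2 HNF4 matches, and the Pdzk1 window (chr3:96829815-96830114 on the plus strand, the first of 2) holds 1 HNF4 match. The Anpep window (chr7:79848161-79848460 on the minus strand) and the Mme window (chr3:63294961-63295260 on the plus strand, the first of 3) hold none of the 4.
Lct: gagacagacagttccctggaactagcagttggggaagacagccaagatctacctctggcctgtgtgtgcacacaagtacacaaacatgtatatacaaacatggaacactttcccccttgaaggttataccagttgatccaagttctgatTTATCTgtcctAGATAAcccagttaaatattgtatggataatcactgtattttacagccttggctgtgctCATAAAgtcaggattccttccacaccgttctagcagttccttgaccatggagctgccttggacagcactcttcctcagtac
Pdzk1: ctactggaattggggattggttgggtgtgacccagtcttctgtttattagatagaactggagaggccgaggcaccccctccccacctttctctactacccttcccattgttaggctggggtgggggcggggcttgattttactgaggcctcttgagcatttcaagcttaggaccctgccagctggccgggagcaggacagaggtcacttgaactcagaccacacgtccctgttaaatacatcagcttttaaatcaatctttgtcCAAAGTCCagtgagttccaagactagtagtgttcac
Anpep: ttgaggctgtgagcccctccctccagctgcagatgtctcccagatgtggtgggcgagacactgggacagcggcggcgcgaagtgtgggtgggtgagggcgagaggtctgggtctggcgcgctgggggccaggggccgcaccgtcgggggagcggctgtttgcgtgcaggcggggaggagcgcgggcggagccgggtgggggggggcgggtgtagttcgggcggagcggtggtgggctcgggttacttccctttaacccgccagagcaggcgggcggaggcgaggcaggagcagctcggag
Mme: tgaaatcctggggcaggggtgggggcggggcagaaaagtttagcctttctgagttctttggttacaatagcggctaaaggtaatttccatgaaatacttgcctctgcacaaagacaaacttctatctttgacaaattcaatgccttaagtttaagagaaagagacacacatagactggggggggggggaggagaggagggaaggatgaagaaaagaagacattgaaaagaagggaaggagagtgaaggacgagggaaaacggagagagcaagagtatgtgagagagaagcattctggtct
Treh: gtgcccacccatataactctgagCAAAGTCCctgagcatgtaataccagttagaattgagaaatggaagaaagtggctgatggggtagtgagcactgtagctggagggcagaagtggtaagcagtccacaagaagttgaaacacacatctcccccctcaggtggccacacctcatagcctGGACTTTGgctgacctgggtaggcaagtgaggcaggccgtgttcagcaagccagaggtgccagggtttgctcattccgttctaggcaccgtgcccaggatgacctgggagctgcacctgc

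The HNF4 string was present in 6 of the 38 windows of these genes (15.8%), those of Ace, Alpi, Enpp7, Ggt1, Pdzk1 and Treh, and in 1.42% of all 32851 windows. Of these genes, Enpp7 and Ggt1 have no expression value here. The other strings were closer to their share in all windows. The CDX string was in 7 of 38 windows (18.4%, against 11.9% of all), the GATA string in 5 of 38 (13.2%, against 11.2%) and the HNF1 string in 3 of 38 (7.89%, against 7.10%). Windows of 1 gene can overlap, and these shares carry no test.

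The disaccharidases split milk sugar, starch fragments and trehalose, and none of the 3 that were tested was called. Lactase, Lct, the enzyme of milk sugar digestion, is a dim probe set here. Its log2 values were 3.72, 4.25, 3.76, 3.19 and 3.88 in control mice 1 to 5 and 4.42, 4.22, 4.74, 5.09 and 5.66 in stressed mice 1 to 5. Of the stressed mice, 4 lay above every control and stressed mouse 2 lay just below control mouse 2. The mean went from 3.77 ± 0.44 (SD, n = 4) to 4.83 ± 0.57 (SD, n = 5) without control mouse 1, a difference of 1.06 ± 0.28 (SE, limma unadjusted p = 0.00268, adjusted p = 0.0918). With all arrays the difference was 1.07 ± 0.27 (SE, adjusted p = 0.345). Of the 10 mice, 4 lay below the floor of 4.15, all of them controls, and so did the control mean of 3.76. The gene passed the filter only through the stressed mice, so its p is given as a value and supports nothing. Without stressed mouse 4 as well as control mouse 1, the Lct difference was 0.99 (limma adjusted p = 0.21).

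Maltase-glucoamylase, Mgam, which trims starch fragments, was at 11.69 to 12.23 in the 9 mice other than control mouse 1 and at 9.31 in that mouse. Its difference without control mouse 1 was 0.16 ± 0.11 (SE, limma adjusted p = 0.489), with a 95% interval of -0.09 to 0.40, and with that mouse 0.67 ± 0.45 (SE, adjusted p = 0.773). Trehalase, Treh, which splits the sugar of mushrooms and insects, was at 2.87, 6.86, 7.10, 7.11 and 6.64 in the controls and 6.83, 6.62, 6.93, 7.20 and 6.99 in the stressed mice. The groups overlapped without control mouse 1, and control mouse 1 lay below the floor of 4.15. Set to the floor, it was 2.78 below the mean of the other controls. With that mouse the Treh difference was 0.80 ± 0.70 (SE, adjusted p = 0.815), and without it -0.01 ± 0.13 (SE, limma adjusted p = 0.97), with a 95% interval of -0.29 to 0.27.

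The peptidases formed the largest group, with 9 genes tested and 0 called. The stressed mean was higher for 9 of 9 with all arrays (median 0.69) and for 5 of 9 without control mouse 1 (median 0.04). Xpnpep2, a membrane aminopeptidase that removes the residue in front of a proline, was at 6.00, 8.49, 8.77, 8.51 and 8.53 in the controls and 8.75, 8.88, 8.85, 9.15 and 8.86 in the stressed mice. Control mouse 3 lay inside the stressed range and the other controls lay below it. The mean went from 8.57 ± 0.13 (SD, n = 4) to 8.90 ± 0.15 (SD, n = 5), a difference of 0.33 ± 0.10 (SE, limma unadjusted p = 0.0054, adjusted p = 0.115). With all arrays it was 0.84 ± 0.45 (SE, adjusted p = 0.709).

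Naaladl1, a peptidase of the glutamate carboxypeptidase family, was at 9.72, 12.52, 12.69, 12.69 and 12.66 in the controls and 12.75, 12.77, 12.92, 12.92 and 12.73 in the stressed mice. Every stressed mouse lay above every control. The difference was small, 0.18 ± 0.08 (SE, limma unadjusted p = 0.0375, adjusted p = 0.246), from 12.64 ± 0.08 (SD, n = 4) to 12.82 ± 0.09 (SD, n = 5). Naaladl1 and Myo1a were the only genes of the 28 whose groups did not overlap, with or without control mouse 1, and both were higher in stressed mice. Over all genes tested, the groups did not overlap with stressed mice higher in 1.16% with 10 arrays and in 4.51% without control mouse 1.

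Neprilysin, Mme, a zinc endopeptidase that degrades peptide hormones, varied most between mice. It was at 3.85, 8.22, 8.06, 8.80 and 8.22 in the controls and 7.70, 8.30, 9.18, 8.96 and 9.83 in the stressed mice. Stressed mice 3, 4 and 5 lay above every control, whereas stressed mouse 1 was the lowest of the 9 mice other than control mouse 1, which lay below the floor. The within-group SD over those 9 mice was 0.655, the highest of the 28 genes. The Mme difference was 1.36 ± 0.83 (SE, adjusted p = 0.758) with all arrays and 0.47 ± 0.35 (SE, limma adjusted p = 0.505) when control mouse 1 was left out. Leaving out stressed mouse 1 in addition gave 0.74 ± 0.28 (SE, limma adjusted p = 0.215).

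Aminopeptidase N, Anpep, which cleaves neutral residues, was at 4.77, 11.22, 11.16, 11.32 and 11.27 in the controls and 11.11, 11.27, 11.29, 11.48 and 10.96 in the stressed mice. The 9 mice other than control mouse 1 lay at 10.96 to 11.48, and control mouse 1 was 6.47 below the mean of the other controls. The Anpep difference was 1.27 ± 1.10 (SE, adjusted p = 0.814) with that mouse and -0.02 ± 0.10 (SE, limma adjusted p = 0.941) without it, with a 95% interval of -0.24 to 0.20. Aminopeptidase A, Enpep, which cleaves acidic residues, was at 9.96 in control mouse 1 and 13.01 to 13.37 in the others, and its difference was 0.69 ± 0.56 (SE, adjusted p = 0.806) with that mouse and 0.04 ± 0.09 (SE, limma adjusted p = 0.835) without it.

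Dipeptidyl peptidase 4, Dpp4, which inactivates incretin hormones, was at 7.87, 11.45, 11.59, 11.48 and 11.42 in the controls and 10.92, 11.43, 11.44, 11.39 and 11.49 in the stressed mice. Apart from control mouse 1, only stressed mouse 1 stood off from the rest. The difference without control mouse 1 was -0.15 ± 0.11 (SE, limma adjusted p = 0.516), and -0.04 when stressed mouse 1 was left out as well. The other Dpp4 probe sets above the floor went the other way without control mouse 1, by 0.10, 0.43 and 0.05. With all arrays the Dpp4 difference was 0.57 ± 0.62 (SE, adjusted p = 0.851). Angiotensin-converting enzyme, Ace, which removes dipeptides from the ends of peptides, was at 5.81 in control mouse 1 and 7.30 to 7.78 in the others, with a difference of 0.31 ± 0.30 (SE, adjusted p = 0.828) over all arrays and -0.02 ± 0.11 (SE, limma adjusted p = 0.947) when that mouse was left out.

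The 2 meprin subunits, secreted and membrane-bound metalloproteases, differed in opposite directions without control mouse 1, and neither was called. Meprin alpha, Mep1a, was at 10.92, 11.23, 11.54, 11.58 and 11.38 in the controls and 11.35, 11.61, 11.69, 11.78 and 11.62 in the stressed mice, a difference of 0.18 ± 0.10 (SE, limma unadjusted p = 0.11, adjusted p = 0.381) without control mouse 1. Meprin beta, Mep1b, was at 10.11, 12.72, 12.85, 12.80 and 12.65 in the controls and 12.45, 12.69, 12.59, 12.65 and 12.62 in the stressed mice, a difference of -0.15 ± 0.08 (SE, limma unadjusted p = 0.0711, adjusted p = 0.32) on the same 9 arrays. The ranges of both subunits overlapped between groups. With all arrays both stressed means were higher, by 0.28 ± 0.13 (SE, adjusted p = 0.641) for Mep1a and 0.38 ± 0.45 (SE, adjusted p = 0.872) for Mep1b.

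Intestinal alkaline phosphatase, Alpi, was at 8.51, 10.71, 11.00, 11.16 and 10.89 in the controls and 10.84, 10.90, 11.30, 11.36 and 11.51 in the stressed mice. Stressed mice 3, 4 and 5 lay above every control, and stressed mice 1 and 2 lay inside the control range. The mean without control mouse 1 went from 10.94 ± 0.19 (SD, n = 4) to 11.18 ± 0.30 (SD, n = 5), a difference of 0.24 ± 0.15 (SE, limma unadjusted p = 0.123, adjusted p = 0.402) with a 95% interval of -0.08 to 0.56. With all arrays it was 0.73 ± 0.43 (SE, adjusted p = 0.751).

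Enpp3, an ectoenzyme that hydrolyses extracellular nucleotides, was, with Lct, 1 of 2 hydrolases for which control mouse 1 lay within the range of the other mice. It was at 6.74, 6.79, 6.38, 6.68 and 6.62 in the controls and 6.84, 6.61, 7.00, 7.29 and 6.83 in the stressed mice. Stressed mice 1, 3, 4 and 5 lay above all controls and stressed mouse 2 lay among them. The difference was 0.29 ± 0.13 (SE, limma unadjusted p = 0.0448, adjusted p = 0.265) without control mouse 1 and 0.27 ± 0.13 (SE, adjusted p = 0.641) with it. Without stressed mouse 4 as well, it was 0.20 (limma unadjusted p = 0.102). Phospholipase B, Plb1, which digests dietary phospholipid, was at 4.97, 5.49, 5.87, 5.61 and 5.53 in the controls and 5.23, 5.48, 5.45, 5.25 and 5.61 in the stressed mice. The Plb1 groups overlapped, with a difference of -0.22 ± 0.11 (SE, limma unadjusted p = 0.0595, adjusted p = 0.298) without control mouse 1 and -0.09 ± 0.15 (SE, adjusted p = 0.915) with it.

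**Figure D2:**
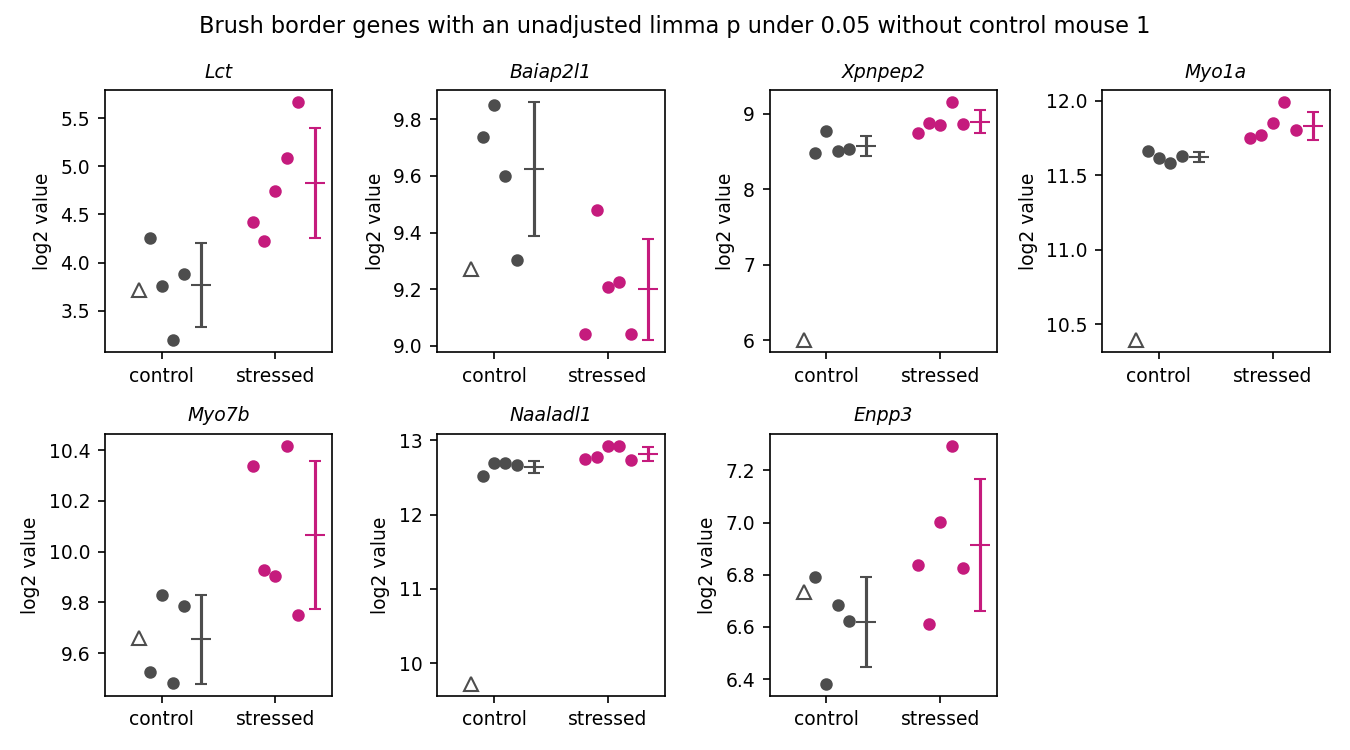
Log2 values of the 7 brush border genes with an unadjusted p under 0.05 without control mouse 1, 1 point per mouse, with the open triangle for control mouse 1 and bars for the mean ± SD of the other mice in each group. Every stressed mouse lies above every control for Naaladl1 and Myo1a, and 1 or more mice overlap for the other 5 genes.

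The myosins included both structural genes with an unadjusted p under 0.05 on the higher side. Myosin 1a, Myo1a, the motor that ties the actin core to the microvillus membrane, was at 10.39, 11.66, 11.62, 11.58 and 11.63 in the controls and 11.75, 11.77, 11.85, 11.99 and 11.81 in the stressed mice. All stressed mice lay above all controls, and controls 2 to 5 lay at 11.58 to 11.66. The mean went from 11.62 ± 0.03 (SD, n = 4) to 11.83 ± 0.10 (SD, n = 5), a difference of 0.21 ± 0.07 (SE, limma unadjusted p = 0.0136, adjusted p = 0.167). With all arrays the Myo1a difference was 0.46 ± 0.22 (SE, adjusted p = 0.659). Myosin 7b, Myo7b, which carries the tip-link complex, was at 9.66, 9.53, 9.83, 9.48 and 9.78 in the controls and 10.34, 9.93, 9.90, 10.42 and 9.75 in the stressed mice. Stressed mice 1, 2, 3 and 4 lay above all controls, and stressed mouse 5 lay among them. Control mouse 1 was 0.01 from the mean of the other controls, so the difference was alike with it, 0.41 ± 0.14 (SE, adjusted p = 0.479), and without it, 0.41 ± 0.14 (SE, limma unadjusted p = 0.0144, adjusted p = 0.17). Myo1d, a second membrane myosin, was at 9.66 to 10.15 in the 9 mice and differed by -0.05 ± 0.10 (SE, limma adjusted p = 0.807), or 0.01 ± 0.11 (SE, adjusted p = 0.984) with all arrays.

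For the tip-link genes the median departure of control mouse 1 from the other controls was -0.06, the smallest of any role. Cdhr2, a protocadherin of the links between microvillus tips, was at 10.88, 11.42, 11.69, 11.59 and 11.49 in the controls and 11.65, 11.65, 11.71, 11.94 and 11.48 in the stressed mice. The groups overlapped, with a difference of 0.14 ± 0.10 (SE, limma unadjusted p = 0.177, adjusted p = 0.473) without control mouse 1 and 0.27 ± 0.15 (SE, adjusted p = 0.709) with it. Its partner Cdhr5 was at 10.10 to 10.64 in the 9 mice and differed by 0.12 ± 0.11 (SE, limma adjusted p = 0.585), or 0.14 ± 0.11 (SE, adjusted p = 0.803) with all arrays. Harmonin, Ush1c, the scaffold that joins these cadherins to Myo7b, was at 9.15 to 9.61 in the 9 mice and at 9.33 in control mouse 1. Its difference was 0.07 ± 0.10 (SE, limma adjusted p = 0.756), with a 95% interval of -0.15 to 0.28, and with all arrays 0.06 ± 0.09 (SE, adjusted p = 0.901).

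Of the actin bundling and linker genes, 7 were tested and 0 were called, with a median difference of 0.05 without control mouse 1. Baiap2l1, a membrane-bending protein that binds actin, was the only one of the 28 genes lower in stressed mice at an unadjusted p under 0.05. It was at 9.27, 9.74, 9.85, 9.60 and 9.30 in the controls and 9.04, 9.48, 9.21, 9.23 and 9.04 in the stressed mice. Of the stressed mice, 4 lay below every control and stressed mouse 2 lay inside the control range. The mean went from 9.62 ± 0.24 (SD, n = 4) to 9.20 ± 0.18 (SD, n = 5), a difference of -0.42 ± 0.12 (SE, limma unadjusted p = 0.00515, adjusted p = 0.113). With all arrays the Baiap2l1 difference was -0.35 ± 0.13 (SE, adjusted p = 0.543). The second Baiap2l1 probe set above the floor differed by -0.05 without control mouse 1.

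Villin, Vil1, which bundles and severs actin, had the tightest values of the 28 genes, with a within-group SD of 0.0575 over the 9 mice. It was at 10.92, 12.47, 12.41, 12.51 and 12.44 in the controls and 12.49, 12.54, 12.49, 12.65 and 12.58 in the stressed mice. The difference was 0.09 ± 0.07 (SE, limma unadjusted p = 0.187, adjusted p = 0.486) without control mouse 1 and 0.40 ± 0.27 (SE, adjusted p = 0.773) with it, and control mouse 1 was 1.54 below the mean of the other controls. Pdzk1, a scaffold that holds transporters at the apical membrane, was at 3.22, 9.47, 10.27, 10.30 and 9.79 in the controls and 9.75, 10.22, 10.56, 10.40 and 10.62 in the stressed mice. Control mouse 1 lay below the floor, and set to the floor it was 5.81 below the mean of the other controls. The groups overlapped without it. The Pdzk1 difference was 1.70 ± 1.16 (SE, adjusted p = 0.775) with that mouse and 0.35 ± 0.20 (SE, limma unadjusted p = 0.111, adjusted p = 0.382) without it.

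The remaining linkers had differences of -0.12 to 0.08 without control mouse 1, and each 95% interval included 0. Ezrin, Ezr, which anchors actin to the membrane, differed by 0.05 ± 0.13 (SE, limma adjusted p = 0.864) with a 95% interval of -0.23 to 0.33. Plastin 1, Pls1, an actin bundler, differed by 0.04 ± 0.15 (SE, limma adjusted p = 0.901) with an interval of -0.29 to 0.38. The actin capping protein Eps8 differed by -0.12 ± 0.09 (SE, limma adjusted p = 0.516), and espin, Espn, a further bundler, by 0.08 ± 0.13 (SE, limma adjusted p = 0.783). The other Eps8 probe sets above the floor differed by -0.19 and -0.22 without control mouse 1. Over the 9 mice these 4 genes ranged from 11.44 to 12.21, 11.42 to 12.28, 10.61 to 11.06 and 6.42 to 7.03 in that order, and control mouse 1 was at 11.01, 10.43, 10.49 and 5.55. With all arrays their differences were 0.21 ± 0.18 (SE, adjusted p = 0.814), 0.34 ± 0.29 (SE, adjusted p = 0.813), -0.02 ± 0.12 (SE, adjusted p = 0.975) and 0.30 ± 0.22 (SE, adjusted p = 0.794).

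Control mouse 1 was the lowest of the 10 mice for 21 of the 28 genes, against 18.6% of all genes tested, and the highest for 0 of 28, against 34.6% of all genes. The 21 were 13 of 15 hydrolases and 8 of 13 structural genes. It lay more than 1 below every other mouse for 14 of the 28 (2.14% of all genes), 11 of them hydrolases. For 6 of the 28 (0.417% of all genes) it lay more than 3 below, and these were Anpep, Enpep, Dpp4, Mme, Treh and Pdzk1. For Lct, Treh, Mme and Pdzk1 its value lay below the floor of 4.15, so the gap has no exact size. With values below the floor set to the floor, 5 of the 28 lay more than 3 below (0.373% of all genes), without Treh, and 14 of the 28 more than 1 below (2.02% of all genes). The median distance from the mean of the other controls was -2.57 over the hydrolases, -2.92 over the peptidases and -0.66 over the structural genes, against 0.08 over all genes. Lct, Enpp3, Myo1d, Myo7b, Cdhr5, Ush1c and Baiap2l1 were within the range of the other mice, 7 of 28 against 46.8% of all genes. This is 1 mouse, so these values have no replicate and no test.

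**Figure D3:**
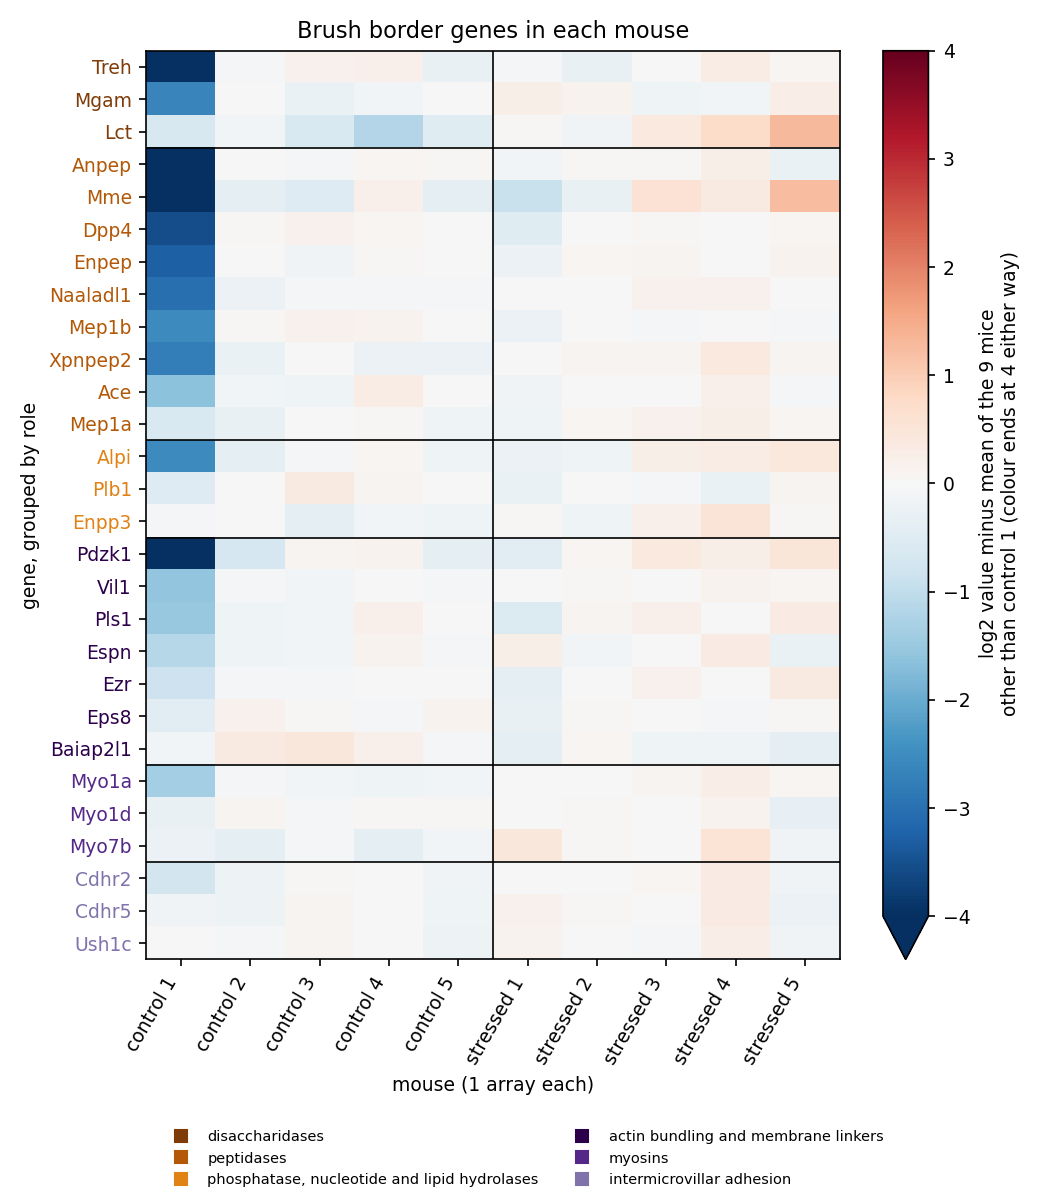
Log2 value of each of the 28 brush border genes in each mouse, minus the mean of the 9 mice other than control mouse 1, with the colour scale ending at 4 on either side and rows grouped by role. The column of control mouse 1 is dark for Treh, Mgam, Pdzk1 and most peptidases and pale for the tip-link genes, and the other 9 columns are pale throughout except Lct and Mme.

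Transcription factors of enterocytes did not share 1 pattern in control mouse 1. Gata5 was at 3.80 there and 7.92 to 8.32 in the other mice, and Hnf4g was at 6.23 against 8.40 to 9.31. Hnf4a was at 11.19 against 11.47 to 11.67, Cdx2 was at 10.22, inside the range of the others, and Cdx1 was at 9.13, above the range of 8.30 to 8.87. Control mouse 1 was the lowest of 10 for 8 of 16 such factors, and for 12 of 13 apical nutrient transporters, with a median of -2.50 from the other controls for the latter.

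**Figure D4:**
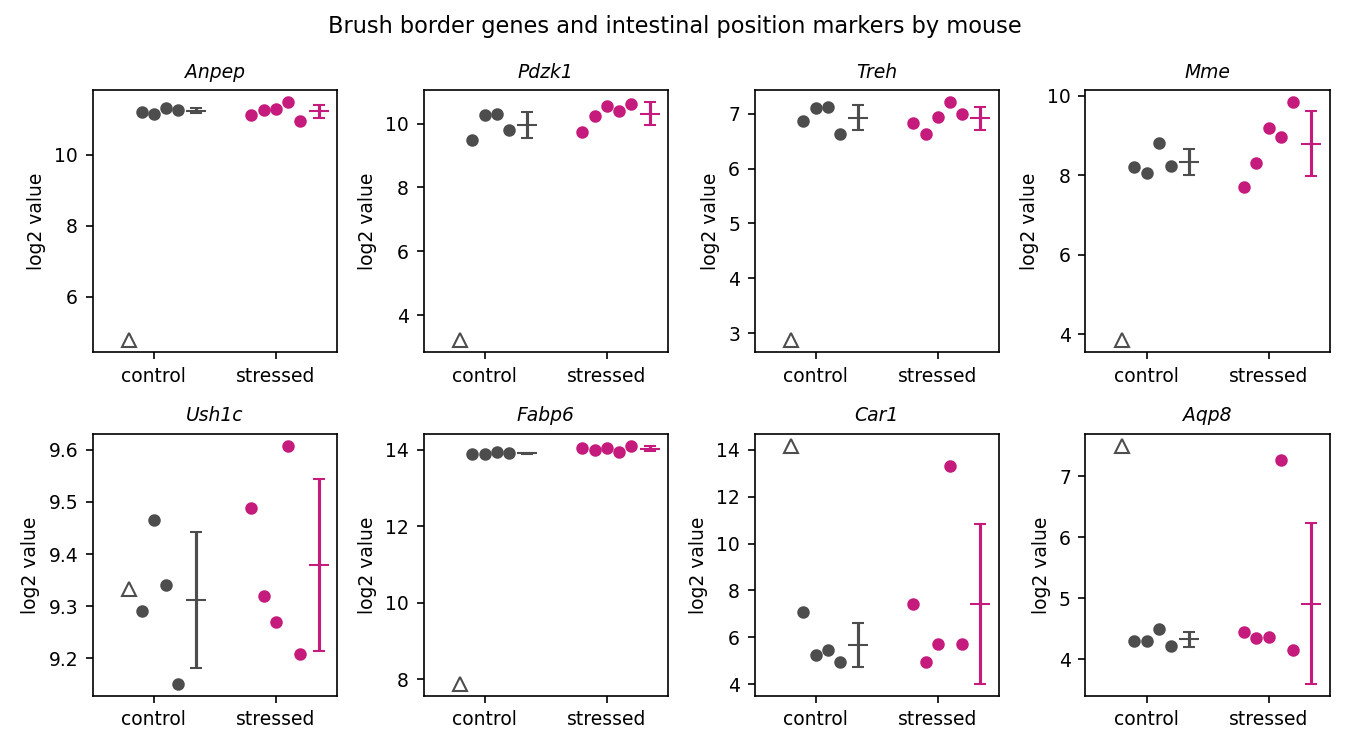
Log2 values of Anpep, Pdzk1, Treh, Mme and Ush1c beside the ileal marker Fabp6 and the large intestine markers Car1 and Aqp8, 1 point per mouse, with the open triangle for control mouse 1. The triangle lies far below the other mice for Anpep, Pdzk1, Treh, Mme and Fabp6, among them for Ush1c, and above all for Car1 and Aqp8, where stressed mouse 4 is also high.

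The mean over the 28 genes was 9.91, 9.98, 10.01 and 9.92 in control mice 2 to 5 and 9.90, 10.01, 10.11, 10.21 and 10.14 in stressed mice 1 to 5, against 8.08 in control mouse 1. Stressed mice 2 to 5 were above the highest control, stressed mouse 2 by less than the second decimal shows, and stressed mouse 1 was below the lowest of controls 2 to 5. These means include Lct, which passed the filter only through the stressed mice, so their order supports nothing. Over all genes tested the means were 7.11 to 7.16 in control mice 2 to 5 and 7.13 to 7.18 in the stressed mice. The median within-group SD over the 9 mice was 0.18, against 0.15 over all genes. After villin, Myo1a (0.0759) and Naaladl1 (0.0893) varied least, and Mme, Lct (0.519) and Pdzk1 (0.373) varied most.

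Stressed mouse 4 was often the highest of the 9 mice and stressed mouse 1 often the lowest. Stressed mouse 4 was the highest of the 9 for 14 of the 28 genes (14.0% of all genes), of which 6 were hydrolases and 8 structural genes, and the lowest for 0. Its Car1 and Aqp8 were high, as given above, but its brush border genes were not low as in control mouse 1. Without stressed mouse 4 and control mouse 1 the differences of Myo7b, Myo1a, Xpnpep2 and Naaladl1 were 0.32, 0.17, 0.26 and 0.15. Stressed mouse 1 was the lowest of the 9 for 9 of the 28 genes (13.5% of all genes), among them Dpp4, Mep1b, Mme and Ezr, and the highest for 0. Its log2 ratio of 3' to 5' control probe sets, a measure of RNA integrity, was 1.13, against 0.51 to 0.70 in the other stressed mice and 0.45 to 0.63 in the controls. The part of this ratio in its brush border values was not tested.

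Other genes of the same surface gave 0 calls as well. Of 20 further brush border enzymes, 16 were tested and 0 were called. With all arrays 10 of the 16 were higher in stressed mice, with a median of 0.23, and without control mouse 1 the median turned to -0.04 with 6 of 16 higher. Carboxypeptidase M, Cpm, which removes basic residues, went from 7.07 ± 0.16 (SD, n = 4) to 7.55 ± 0.16 (SD, n = 5), a difference of 0.48 ± 0.10 (SE, limma adjusted p = 0.0577) on these 9 arrays and 0.35 ± 0.15 (SE, adjusted p = 0.600) on all 10. Neutral ceramidase, Asah2, which digests sphingolipid, went from 8.68 ± 0.28 to 8.16 ± 0.26, a difference of -0.53 ± 0.15 (SE, limma adjusted p = 0.114) on 9 arrays and -0.25 ± 0.28 (SE, adjusted p = 0.855) on 10. Of 30 further microvillus and terminal web genes, 29 were tested and 0 were called. With all arrays 23 were higher (median 0.10), and without control mouse 1 20 were higher (median 0.06). At a limma unadjusted p under 0.05 without it, 4 of the 29 were higher (11.4% of all genes were) and 0 were lower (6.56% of all genes were). The 4 were the keratin Krt18 by 0.21, radixin, Rdx, by 0.24, the apical syntaxin Stx3 by 0.18 and the actin nucleator Cobl by 0.24.

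Of 16 enterocyte transcription factors tested (18 listed), 0 were called. With all arrays 7 were higher (median -0.04), and without control mouse 1 8 were higher (median 0.02). At a limma unadjusted p under 0.05, 2 were then higher (11.4% of all genes were) and 3 were lower (6.56% of all genes were). Elf3, an epithelial factor of the ETS family, gave a difference of -0.39 ± 0.11 (SE, limma adjusted p = 0.111) on those 9 arrays. On all arrays it was -0.38 ± 0.11 (SE, limma adjusted p = 0.408). Every stressed mouse lay below controls 2 to 5 for Elf3. On the 9 arrays the groups did not overlap with stressed mice lower for 2 of the 16 factors (372 of all 13666 genes). They did not overlap with stressed mice higher for 1 factor (617 of all 13666 genes). Of 13 apical nutrient transporters tested (15 listed), 0 were called. With all arrays 12 were higher (median 0.53), and without control mouse 1 the median turned to -0.02 with 6 higher. On those 9 arrays 3 were lower at a limma unadjusted p under 0.05 (6.56% of all genes were) and 0 were higher (11.4% of all genes were). The 3 were the amino acid carriers Slc36a1 and Slc1a1 and the phosphate carrier Slc34a2.

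Single markers of other cell types and of position along the gut were called without control mouse 1, and 0 with all arrays. Over all 13666 genes tested without that mouse, 7687 were higher in stressed mice and 5979 lower. Of these, 36 were called higher and 73 called lower. Without control mouse 1 the T cell markers were lower in 6 of 6 tested, with 1 called (Cd7), and their mean was 5.80 to 6.59 in controls and 5.47 to 5.66 in stressed mice. The B cell markers were lower in 7 of 7 tested, with 3 called (Jchain, Pou2af1 and Mzb1), and their mean was 6.49 to 7.55 against 5.96 to 6.35. Enteroendocrine markers were higher in 7 of 7 tested with 0 called, at 8.20 to 8.21 against 8.42 to 8.58. The lists of goblet, Paneth, stem and dividing, myeloid, smooth muscle, fibroblast and endothelial, and pancreatic acinar markers had 0 called. Among 7 distal ileum markers, 5 were higher and 2 were called, the hormone gene Fgf15 by 1.73 ± 0.32 (SE, limma adjusted p = 0.0347) and the vitamin B12 receptor Cubn by 0.70 ± 0.11 (SE, limma adjusted p = 0.0245). Of 8 proximal small intestine markers 5 were higher, and the iron exporter Slc40a1 was called lower, by -0.89 ± 0.17 (SE, limma adjusted p = 0.0365). Of 7 villus tip genes tested 2 were higher, and adenosine deaminase, Ada, was called lower, by -0.995 ± 0.19 (SE, limma adjusted p = 0.0444). Of 7 large intestine markers tested 3 were higher, and the carbonic anhydrase Car4 was called lower, by -1.12 ± 0.15 (SE, limma adjusted p = 0.0184). With all arrays the 5 differences were 2.41, 1.35, -1.07, -0.08 and -1.18 in that order. The epithelial markers were at 12.20 to 12.26 in controls and 12.23 to 12.32 in stressed mice. The part of these cell types and positions in the brush border values was not tested.

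Several probe sets above the floor were available for 10 of the 28 genes. With all arrays the probe sets of a gene had the same sign of difference in 10 of 10 genes, and without control mouse 1 in 7 of 10. The exceptions were Dpp4, Ezr and Myo1d.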

How the data were processed

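The data were 1 Affymetrix expression array for each of 10 mice, 5 control and 5 stressed. The deposited table holds log2 values normalized by RMA, per the submitters' processing notes, for 45101 probe sets (64 of them controls), and the RMA version is not given in the sources used here. Log2 signals ran from 1.22 to 14.4, with array medians of 4.78 to 4.82. Gene names came from the platform annotation: 34945 probe sets had 1 symbol, 932 several and 9160 none, and only the first were used. The lowest 40% of probe sets by mean (below 4.15) were left out, and each gene was read from its probe set with the highest mean. All 13666 genes were fitted in R 4.3.3 with limma 3.58.1 (lmFit and eBayes, two-sided, no covariate), with Benjamini-Hochberg adjustment over all of them and calls at an adjusted p under 0.05, for all 10 arrays and again without control mouse 1. The procedure was run on simulated normal data with the within-group spread of the arrays other than control mouse 1. Those data held no outlying mouse, so they cannot test how the fit with all 10 arrays handles one. The labels describe separate mice, and the p-values set each difference of group means against the variation between mice within groups. With 1 array per mouse, that variation includes variation between arrays.

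The genes and the lists of related and marker genes were chosen with earlier results of these data known. Values in every mouse are given for the 14 genes with the smallest p without control mouse 1 and, of the rest, for the 4 in which control mouse 1 lay farthest from the other controls. Up to 4 genes of a list with the smallest p, and those on which a cell type or position turns, were named. Alternatives changed the filter, the choice of probe set, the scaling, the variance moderation, array weights, a replicate block and the arrays used. The labels name no batch.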

Additional observations from a re-analysis of the deposited data

Results flagged for a closer look

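A mouse was singled out in a group of 5 where its gap to the nearest other mouse took up more of the group's range than Dixon's 95% limit. Of 56 groups examined (28 genes in 2 groups), 18 had such a mouse. Chance singles out about 1 in 20 groups, and genes of 1 mouse are not independent. The share of all genes with such a mouse was not computed, so the count is not read as particular to these genes. Over all genes tested, control mouse 1 was the lowest of 10 for 18.6% and the highest for 34.6%.

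Control mouse 1 was that mouse for 17 genes, and it was the low one each time. Among the disaccharidases it was at 9.31 for Mgam and 2.87 for Treh. Among the peptidases it was at 4.77 for Anpep, 9.96 for Enpep, 7.87 for Dpp4, 10.11 for Mep1b, 5.81 for Ace, 3.85 for Mme, 9.72 for Naaladl1 and 6.00 for Xpnpep2. Alkaline phosphatase, Alpi, was at 8.51. Among the structural genes it was at 10.92 for Vil1, 11.01 for Ezr, 10.39 for Myo1a, 5.55 for Espn, 3.22 for Pdzk1 and 10.43 for Pls1.

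Stressed mouse 1 was singled out for Dpp4, at 10.92 with the other stressed mice at 11.39 to 11.49.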

How the results depend on the processing

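No setting called any of the 28 brush border genes. Among the settings run from all arrays their smallest limma adjusted p was 0.0918 (Lct), which came from leaving out control mouse 1. Among those run without control mouse 1 it was 0.0624 (Baiap2l1). The count of all genes called is less stable. With all arrays it was 0, but 2 with the mean of a gene's probe sets, with median centring and with centring on epithelial markers, and 41 with array weights; leaving out 1 mouse gave 0 to 109 (109 without control mouse 1, 2 without stressed mouse 2). Without control mouse 1 it was 109 (36 higher, 73 lower), but 242 with median centring (44 higher, 198 lower), 182 with epithelial centring (31 higher, 151 lower) and 169 with trended, robust moderation (70 higher, 99 lower). Leaving out a second mouse gave 6 to 154: 19, 16 and 58 without control mice 2, 3 and 4, and 32, 21, 6 and 14 without stressed mice 1, 3, 4 and 5. The labels do not say whether the replicate numbers of the titles pair the mice. Deviations of same-numbered mice from their group means correlated at -0.30 to 0.28. These correlations cannot decide the question, because the control means include control mouse 1. With the replicate block 0 genes were called with all arrays and 95 without control mouse 1, and 0 brush border genes in either. With centring, 24 of 28 were higher with all arrays and 16 of 28 without control mouse 1. Some differences changed sign, and the cause was not tested. Leaving out control mouse 1 turned Treh, Anpep, Dpp4, Mep1b, Ace and Myo1d to the lower side. In settings that keep all 10 mice these were Mep1b (-0.039) and Ace (-0.0016) with array weights, and Myo1d with median centring (-0.020), epithelial centring (-0.037) and array weights (-0.051). Without control mouse 1 they were Treh with array weights (0.010) and the replicate block (0.0091), Anpep (0.0083) and Ace (0.016) with the block, Dpp4 (0.11) and Myo1d (0.087) with the mean of probe sets, and, with median and epithelial centring, Enpep (-0.023 and -0.012), Ezr (-0.015 and -0.0040) and Pls1 (-0.020 and -0.0089). Leaving out single mice included, 8 of 28 genes changed sign in some setting with all arrays and 9 of 28 without control mouse 1. Dim probe sets such as Lct limit what can be said of their size.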
